A study of Homo sapiens with 9 samples.

Results

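The integrated stress response was followed here through 10 genes of its ATF4 arm. These were the transcription factors ATF4, CEBPG, DDIT3 and ATF3, the transcription cofactor NUPR1 and the feedback regulators TRIB3 and PPP1R15A. The others were the constitutive phosphatase subunit PPP1R15B and the target enzymes ASNS and CHAC1. All 10 were taken by gene symbol and were found among the 17637 genes of the count table. No measured value enters that rule, but the genes were chosen with earlier results of these data known. Messenger RNA was sequenced from 9 libraries of KOPTK1, a human cell line of T-cell acute lymphoblastic leukaemia (T-ALL). The study asked, as its title and design state, whether MYC acts downstream of DHX15, a DEAH-box RNA helicase. Cells were transduced with lentivirus and fell into 3 groups of 3 libraries. The group shcControl carried a control hairpin, which the count table names as one against GFP. The group shDHX15 carried a short hairpin RNA against DHX15, numbered 1 in the table, and the group shDHX15+MYC carried it together with the MYC coding region. All 9 libraries came from this 1 line with the genotype label WT, no group had added MYC without the hairpin, and the labels do not say whether the first 2 groups carried an empty MYC vector. The labels also do not say whether the libraries of a group came from separate cultures, so p-values measure the spread between libraries only.

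When cells are short of amino acids or their endoplasmic reticulum is overloaded, kinases phosphorylate the initiation factor eIF2, which lowers translation in general while translation of ATF4 rises. ATF4 is a basic leucine zipper (bZIP) factor that pairs with partners such as C/EBPγ and binds a composite element, the C/EBP-ATF response element (CARE), in genes for amino acid supply, tRNA charging and cell death. PPP1R15A and PPP1R15B direct protein phosphatase 1 to eIF2. PPP1R15A is the stress-inducible subunit that closes the loop, and PPP1R15B is the constitutive one. The control of ATF4 is in large part translational, and read counts of messenger RNA do not measure that step.

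To show where such elements lie, the promoter windows of the RefSeq tables (GRCh38.p14, 250 bases before to 50 after each start) were searched on both strands for the CARE letters TGATGNAA, the cyclic AMP response element (CRE) letters TGACGTCA and the canonical E-box letters CACGTG, which MYC with MAX is known to bind. None of the 3 motifs contains another. Of the 10 genes, 9 had a window and NUPR1 had none. A CARE stood in the windows of 5 of the 9 (ASNS, CHAC1, CEBPG, ATF3 and PPP1R15B), against 4.46% of 27305 genes with a window. A CRE stood in the window of PPP1R15A alone (2.25% of genes) and a CACGTG E-box in that of ATF4 alone (8.78% of genes). The stretches are printed 5′ to 3′ on the gene's strand with the motif in capitals, because these genes differ below in how they moved. In CHAC1 the element reads on the reverse strand.
ASNS, chr7:97872458-97872487, minus strand: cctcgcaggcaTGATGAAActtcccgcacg
CHAC1, chr15:40953251-40953280, plus strand: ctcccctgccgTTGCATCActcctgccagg
CEBPG, chr19:33374045-33374104, plus strand: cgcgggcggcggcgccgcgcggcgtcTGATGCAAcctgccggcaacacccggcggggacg
ATF3, chr1:212565190-212565249, plus strand: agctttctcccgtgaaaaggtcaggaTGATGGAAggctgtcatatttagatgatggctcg
PPP1R15B, chr1:204412008-204412067, minus strand: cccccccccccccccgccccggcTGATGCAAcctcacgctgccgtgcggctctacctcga
PPP1R15A, chr19:48872352-48872381, plus strand: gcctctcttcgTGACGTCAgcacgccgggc
ATF4, chr22:39520465-39520494, plus strand: ggaggagacggtCACGTGgtcgcggcggaa
The motif began 68 bases before the RefSeq start in ASNS, 209 in CHAC1, 42 in CEBPG, 191 in ATF3, 227 in PPP1R15B, 58 in PPP1R15A and 82 in ATF4. In ASNS, CHAC1, CEBPG and ATF4 the motif nonetheless lies inside the GENCODE span of the gene, given below. The printed stretches of ASNS, CHAC1 and ATF4 overlap an annotated exon. A match of letters is a description of the sequence and not a binding site.

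The libraries held 42134302 to 59688062 counts, and a gene with 0 counts could, by counting error alone, have had up to 3, or 0.0519 to 0.0708 CPM (counts scaled to a common library size). DHX15 stood at 280.3 ± 3.43 CPM (SD, n = 3, scaled by TMM factors as are all CPM below) in shcControl, 167 ± 13.8 in shDHX15 and 195 ± 2.55 in shDHX15+MYC. DHX15 was thus higher in shDHX15+MYC than in shDHX15 (log2 fold change 0.23, without overlap of the libraries). The comparison of these 2 groups therefore also holds a difference in DHX15, whose part in the results was not tested. MYC stood at 109 ± 0.603, 86.9 ± 3.78 and 7098 ± 153 CPM. Within shDHX15, replicate 1 stood apart: set against replicates 2 and 3, its counts gave chi-squares of 17.3 and 16.4 for each degree of freedom. Replicates 2 and 3 gave 4.36 between them, and pairs within the remaining groups 2.71 to 3.19. All 12 T-cell markers examined were detected, and their summed level was 3110 to 3225 CPM in shcControl, 2440 to 2516 in shDHX15 and 1544 to 1582 in shDHX15+MYC. Single markers differed: DNTT stood at 96.5 to 101, 48.7 to 51.0 and 1.41 to 2.13 CPM in these groups. PTCRA stood at 1.93 to 2.75 CPM in shDHX15 and 0.0828 to 0.257 in shDHX15+MYC, and CD5 at 152 to 170 and 163 to 165. Sums for markers of other cells were lower: 4 of 5 B-cell markers were in the table and summed to 51.1 to 53.0, 46.5 to 48.9 and 105 to 109 CPM, most of it CD79A. Summed levels of 5 myeloid markers were 0.708 to 1.31, 0.623 to 0.869 and 7.16 to 8.76 CPM. Those of 7 markers of adherent packaging cells or fibroblasts were 19.3 to 20.4, 14.1 to 15.1 and 36.8 to 37.1 CPM. Of these 7, COL1A2, COL3A1 and CDH1 reached at most 0.222 CPM in any library. KRT8 stood at 7.03 to 7.34 CPM in shDHX15 and 14.8 to 15.8 in shDHX15+MYC, and KRT18 at 4.04 to 4.81 and 15.3 to 16.5. COL1A1 and EPCAM were also higher in shDHX15+MYC than in shDHX15. The summed marker levels differed between the groups compared below, and their part in the results was not tested. In bulk RNA, fewer cells of a kind and less RNA per cell cannot be told apart.

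The hairpin alone left the ATF4 arm split. Against shcControl, 5 of the 10 genes were higher in shDHX15 (CEBPG, DDIT3, ATF3, PPP1R15B and CHAC1), 3 were lower (ATF4, NUPR1 and ASNS) and 2 did not pass the test (TRIB3 and PPP1R15A), at an adjusted p under 0.05 in the quasi-likelihood test of edgeR over all 15309 genes tested. The changes were small: 9 of the 10 were less than 2-fold, and the exception, NUPR1, was near the limit of detection. Of all genes tested, 22.0% were called higher and 23.0% lower in this comparison. The CPM ranges of the 2 groups did not overlap for the same 8 genes, 5 with shDHX15 above and 3 with it below, against 24.4% and 26.6% of all genes. The median log2 fold change of the 10 genes was 0.06, and that of all genes tested was -0.0047. Under scaling by total counts, the calls over all genes were 4576 higher and 2568 lower in place of 3362 and 3524. Leaving out shDHX15 replicate 1 left 4 genes higher and 3 lower.

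With MYC added, nearly all of the same genes moved in 1 direction, though by differing amounts. Against shDHX15, 9 of the 10 genes were higher in shDHX15+MYC and 1, PPP1R15B, was lower, a call that other scalings did not give (below), in a background where 42.1% of all genes were called higher and 42.6% lower. Of the 9, 7 rose at least 2-fold (DDIT3, ATF3, NUPR1, TRIB3, PPP1R15A, ASNS and CHAC1), a size that 21.7% of all genes tested reached. That count hung on the scaling: with total-count scaling ATF4 also passed a log2 fold change of 1 (1.16, median of all genes 0.20). ASNS went as low as 0.998 when a library was left out. The median log2 fold change of the 10 genes was 1.33, beside 0.006 for all genes. Ranges of CPM did not overlap for any of the 10, 9 with shDHX15+MYC above and 1 with it below; over all genes these shares were 42.4% and 42.6%.

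Levels with MYC also passed those of the control cells. Against shcControl, 9 genes were higher in shDHX15+MYC, none was lower and NUPR1 did not pass the test, beside 42.0% of all genes called higher and 42.5% lower; 5 were at least 2-fold higher (DDIT3, ATF3, TRIB3, PPP1R15A and CHAC1), as were 21.3% of all genes. With total-count scaling ATF4 (1.04), CEBPG (1.17) and ASNS (1.12) also passed a log2 fold change of 1, where the median of all genes was 0.28. The CPM ranges of 9 genes lay above those of shcControl and none below, against 43.5% and 43.6% of all genes. The median log2 fold change was 1.18, beside 0.02 for all genes. None of the 10 was lower at an unadjusted edgeR p under 0.05 either, and DESeq2 called none lower. The comparisons with MYC share the shDHX15+MYC libraries, and those with shDHX15 share its libraries, so their values are not independent. Summed over the 10 genes and scaled by library total alone, the level was 796 to 817 CPM in shcControl, 807 to 814 in shDHX15 and 1886 to 1908 in shDHX15+MYC.

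**Figure D1:**
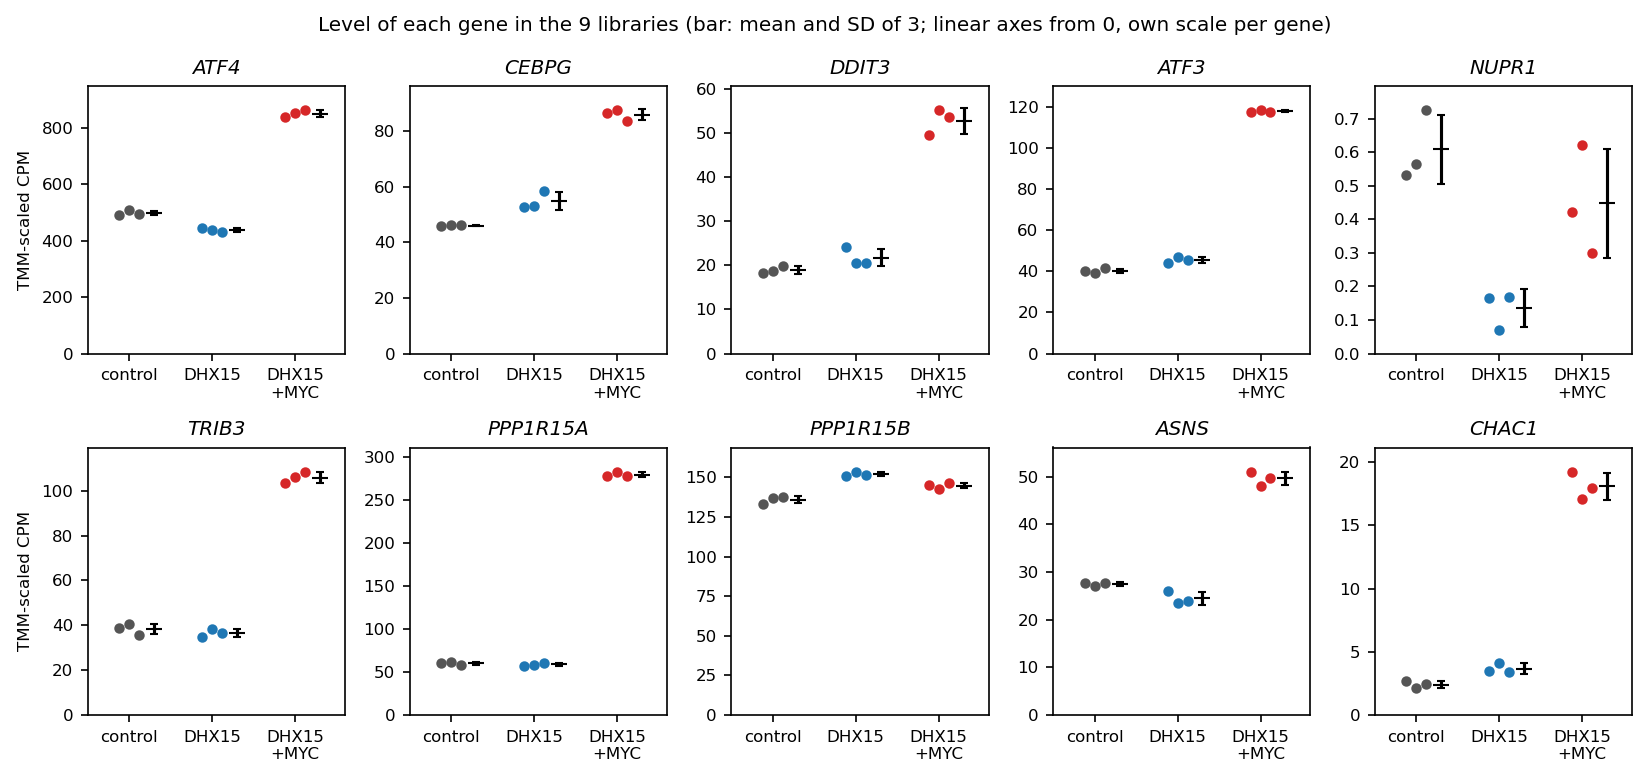
Level of each of the 10 genes in each library, in TMM-scaled CPM on linear axes from 0 with a scale for each gene; points are libraries (3 per group; control is shcControl, DHX15 is shDHX15), and the bar beside them is the mean and SD. In 8 panels all shDHX15+MYC points lie above all others; the exceptions are PPP1R15B and NUPR1.

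ATF4, the factor at the centre of the response (chr22:39519695-39522685, plus strand, GRCh38), read 492, 508 and 497 CPM in shcControl, 445, 437 and 431 in shDHX15 and 838, 854 and 863 in shDHX15+MYC. The 3 groups did not overlap, and shDHX15 was the lowest. ATF4 fell by 0.19 on the log2 scale with the hairpin (SE 0.0273, edgeR adjusted p = 2.75e-05) and rose by 0.96 with MYC (SE 0.0274, adjusted p = 1.42e-15), a 1.95-fold rise. Of 101 sequence windows along its transcripts, 7 (6.93%) are also found in ATF4 pseudogenes, so a small part of its counts is uncertain. The other 9 genes shared no window with another locus.

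CEBPG encodes C/EBPγ, a partner of ATF4 on composite elements (chr19:33373330-33382686, plus strand). Its level was 45.8, 46.2 and 46.1 CPM in shcControl, 52.9, 53.1 and 58.5 in shDHX15 and 86.6, 87.5 and 83.8 in shDHX15+MYC, so that the groups stood in steps without overlap. CEBPG thus rose in both comparisons, by 0.25 with the hairpin (SE 0.0452, edgeR adjusted p = 2.29e-04) and by 0.65 with MYC (SE 0.0439, adjusted p = 2.16e-10). With the hairpin, it and ATF4 moved in opposite directions.

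DDIT3 encodes CHOP, a bZIP factor tied to cell death under prolonged stress (chr12:57516588-57521737, minus strand). Its level was 18.1, 18.7 and 19.9 CPM in shcControl, 24.0, 20.6 and 20.6 in shDHX15 and 49.4, 55.1 and 53.5 in shDHX15+MYC. The shDHX15 libraries lay just above the controls, with replicate 1 the highest, and those with MYC far above both. DDIT3 rose by 0.20 with the hairpin (SE 0.0700, edgeR adjusted p = 0.0271) and by 1.28 with MYC (SE 0.0663, adjusted p = 5.11e-12). Without shDHX15 replicate 1 the first change was 0.12 and was not called (adjusted p = 0.111), and leaving out shcControl replicate 1 or 2 also ended that call (adjusted p = 0.105 and 0.0746). Of the DDIT3 exon bases, 355 (27.2%) lie under exons of MARS, the methionyl-tRNA synthetase, on the opposite strand, and 58 (4.44%) under MBD6. Whether the counting used strand is not given in the sources used here, so reads of DDIT3 and MARS there may not be told apart. MARS stood at 164 ± 2.07 CPM in shcControl, 172 ± 2.99 in shDHX15 and 375 ± 7.85 in shDHX15+MYC, above DDIT3 in each group. It had a log2 difference of 0.07 with the hairpin (edgeR adjusted p = 0.0856) and rose by 1.12 with MYC. The part of MARS reads in the DDIT3 counts was not tested.

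ATF3, a bZIP factor induced by ATF4 and by other stress pathways (chr1:212565334-212620777, plus strand), stood at 40.0, 39.0 and 41.4 CPM in shcControl and 44.0, 46.8 and 45.7 in shDHX15. In all 3 libraries of shDHX15+MYC it stood at 118 CPM, the smallest relative spread of any of these genes in any group (SD 0.427). The groups did not overlap. ATF3 rose by 0.18 with the hairpin (SE 0.0412, edgeR adjusted p = 0.00174) and by 1.37 with MYC (SE 0.0396, adjusted p = 1.63e-15).

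NUPR1, a small nuclear cofactor induced by stress (chr16:28532708-28539174, minus strand), was barely detected. It had 24, 24 and 34 counts in shcControl, 8, 4 and 8 in shDHX15 and 20, 30 and 14 in shDHX15+MYC, or 0.608 ± 0.102, 0.135 ± 0.0571 and 0.448 ± 0.162 CPM. The shDHX15 libraries lay below all others, and the remaining groups overlapped. NUPR1 fell by 2.19 on the log2 scale with the hairpin (SE 0.471, edgeR adjusted p = 0.00112) and rose by 1.75 with MYC (SE 0.486, adjusted p = 0.00306). Against shcControl the difference with MYC was -0.44 (SE 0.397, adjusted p = 0.308).

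Among the feedback regulators, TRIB3 is a pseudokinase that restrains ATF4 and is itself an ATF4 target (chr20:362835-397559, plus strand). It stood at 38.9, 40.5 and 35.9 CPM in shcControl, 34.6, 38.5 and 36.7 in shDHX15 and 103, 106 and 108 in shDHX15+MYC. The first 2 groups overlapped, with a log2 difference of -0.07 (SE 0.0523, edgeR adjusted p = 0.305). With MYC, TRIB3 rose by 1.53 (SE 0.0505, adjusted p = 9.81e-15), a 2.89-fold rise.

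PPP1R15A encodes GADD34, the stress-inducible subunit that brings protein phosphatase 1 to eIF2 (chr19:48872392-48876057, plus strand). It read 60.3, 61.8 and 58.6 CPM in shcControl, 56.8, 58.7 and 61.1 in shDHX15 and 278, 283 and 278 in shDHX15+MYC. The control and hairpin libraries overlapped, with a difference of -0.03 (SE 0.0368, edgeR adjusted p = 0.497). PPP1R15A rose 4.75-fold with MYC (log2 2.25, SE 0.0361, adjusted p = 1.07e-18).

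PPP1R15B encodes CReP, the constitutive counterpart of GADD34 (chr1:204403387-204411791, minus strand). It read 133, 137 and 137 CPM in shcControl, 151, 153 and 151 in shDHX15 and 145, 143 and 147 in shDHX15+MYC. All 9 values lie close together, with the hairpin group highest. PPP1R15B rose by 0.16 with the hairpin (SE 0.0307, edgeR adjusted p = 3.70e-04). With MYC its difference from shDHX15 was -0.07 (SE 0.0306, adjusted p = 0.0450), and this call hung on the scaling: with total-count scaling it was 0.13 (adjusted p = 7.34e-04) and with TMM factors from the genes averaging 3 or more on the log2 CPM scale it was 0.13 (adjusted p = 8.03e-04). Both of those scalings put the median of all genes at 0.20. With RLE size factors and with DESeq2 (-0.03 each, adjusted p = 0.368 each), with only the 2 groups in the fit (adjusted p = 0.138), with a replicate block (adjusted p = 0.0582), and without shDHX15 replicate 2 or shDHX15+MYC replicate 1 or 2 (adjusted p = 0.170, 0.0714 and 0.117), it was not called, so that no gene of the 10 was then called lower. Against shcControl it was 0.09 higher with MYC (adjusted p = 0.00999), and that call was lost without shcControl replicate 1 (adjusted p = 0.0769).

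Setting the 2 phosphatase subunits against each other within each library removes the scaling. The log2 ratio of PPP1R15A to PPP1R15B counts was -1.17 ± 0.0482 in shcControl, -1.37 ± 0.0545 in shDHX15 and 0.95 ± 0.0328 in shDHX15+MYC (SD, n = 3 each). In both groups without MYC the constitutive subunit had more counts, and in every library with MYC the inducible one did, by a ratio of 1.90 to 1.98. The difference between shDHX15+MYC and shDHX15 was 2.32, and that between shDHX15 and shcControl -0.20, each with a 2-sided exact permutation p of 0.1, the smallest that 3 libraries against 3 allow (0.12 adjusted over 6 such tests). The same ratio of DDIT3 to CEBPG, on which the overlap of DDIT3 with MARS also bears, was -1.29 ± 0.0652, -1.34 ± 0.186 and -0.71 ± 0.0880. It differed by 0.63 between shDHX15+MYC and shDHX15 (exact permutation p = 0.1) and by -0.05 between shDHX15 and shcControl (exact permutation p = 0.8), where the groups overlapped and leaving out shDHX15 replicate 3 turned the sign (0.03).

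ASNS, asparagine synthetase, is a classic target of ATF4 (chr7:97852118-97872542, minus strand). It stood at 27.7, 27.1 and 27.8 CPM in shcControl, 26.1, 23.4 and 23.9 in shDHX15 and 51.0, 48.1 and 49.7 in shDHX15+MYC, with no overlap and the hairpin group lowest. ASNS fell by 0.17 on the log2 scale with the hairpin (SE 0.0543, edgeR adjusted p = 0.0161) and rose by 1.02 with MYC (SE 0.0528, adjusted p = 4.80e-12). The fall was not called with total-count scaling (-0.11, adjusted p = 0.126), with only the 2 groups in the fit (adjusted p = 0.0581), or without shcControl replicate 3, shDHX15 replicate 2 or shDHX15 replicate 3 (adjusted p = 0.0512, 0.0661 and 0.0513). Of its exon bases, 1985 (44.6%) are also annotated in AC079781.5 on the same strand, so its counts may hold reads of either.

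CHAC1, which degrades glutathione and is induced by ATF4 (chr15:40952962-40956519, plus strand), had 120, 89 and 114 counts in shcControl, 168, 240 and 160 in shDHX15 and 912, 827 and 837 in shDHX15+MYC. These were 2.67, 2.10 and 2.43, then 3.49, 4.15 and 3.39, then 19.2, 17.1 and 17.9 CPM. The groups stood in steps without overlap. CHAC1 rose 1.54-fold with the hairpin (log2 0.62, SE 0.126, edgeR adjusted p = 7.05e-04), the largest rise among the 10 genes in that comparison, and 4.90-fold with MYC (log2 2.29, SE 0.105, adjusted p = 9.04e-13). Against shcControl it was 7.52-fold higher with MYC.

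**Figure D2:**
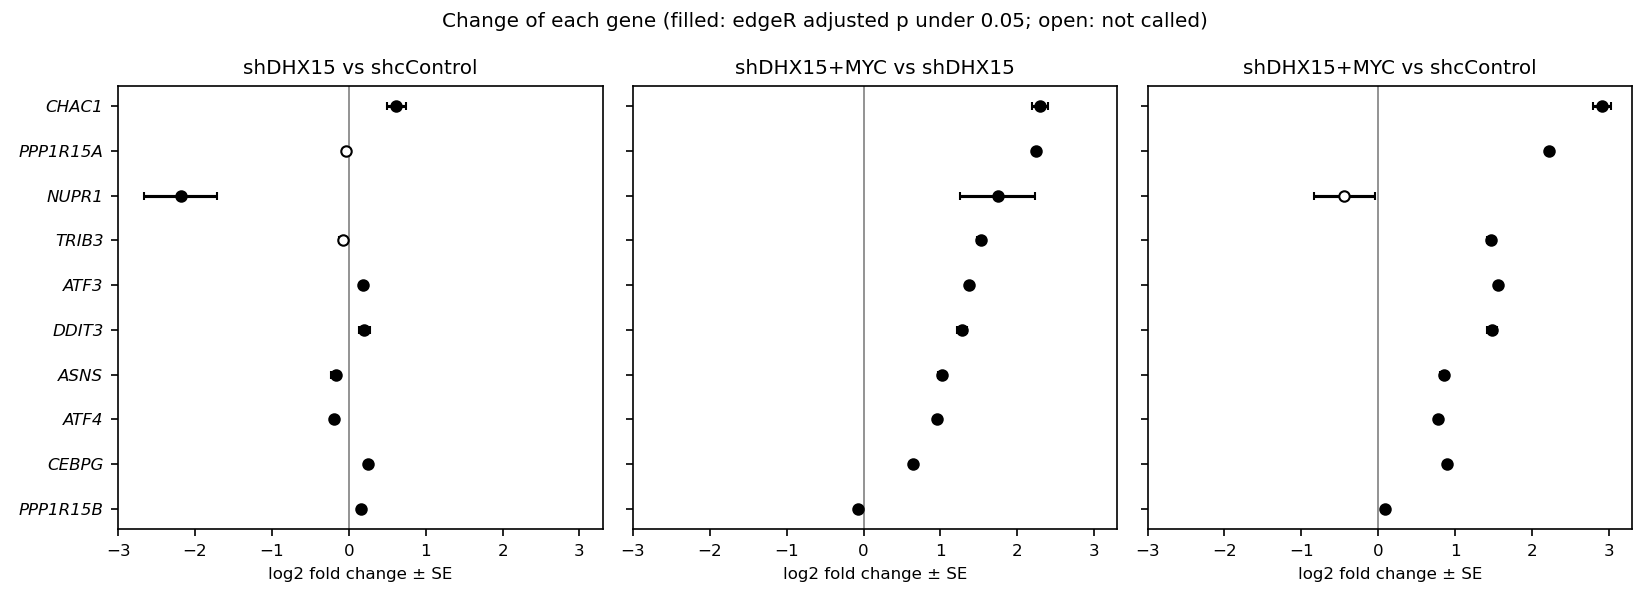
Log2 fold change with its SE for the 10 genes in the 3 comparisons, in the order of the change with MYC over shDHX15; filled points passed an edgeR adjusted p of 0.05 and open points did not. In the left panel the points lie within 1 of 0 except NUPR1 (-2.19), and in the middle panel they run from -0.07 (PPP1R15B) to 2.29 (CHAC1).

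The genes therefore differed in how far they moved relative to ATF4 itself. For each 100 ATF4 counts there were 5.52 ± 0.163 counts of ASNS in shcControl, 5.58 ± 0.260 in shDHX15 and 5.82 ± 0.233 in shDHX15+MYC. The ASNS level thus kept close to a fixed proportion of that of ATF4 over the 3 groups. PPP1R15A counts per 100 of ATF4 were 12.1 ± 0.236, 13.5 ± 0.696 and 32.9 ± 0.533, and those of CHAC1 0.482 ± 0.0647, 0.841 ± 0.0940 and 2.13 ± 0.152. PPP1R15B went from 27.2 ± 0.395 and 34.7 ± 0.629 to 17.0 ± 0.305. For CEBPG the figures were 9.23 ± 0.116, 12.5 ± 0.899 and 10.1 ± 0.342, highest in the hairpin group. ATF4 took 57.4% ± 0.239 of the counts of the 10 genes in shcControl, 52.4% ± 0.639 in shDHX15 and 49.9% ± 0.296 in shDHX15+MYC. These ratios are given as descriptions and were not tested.

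**Figure D3:**
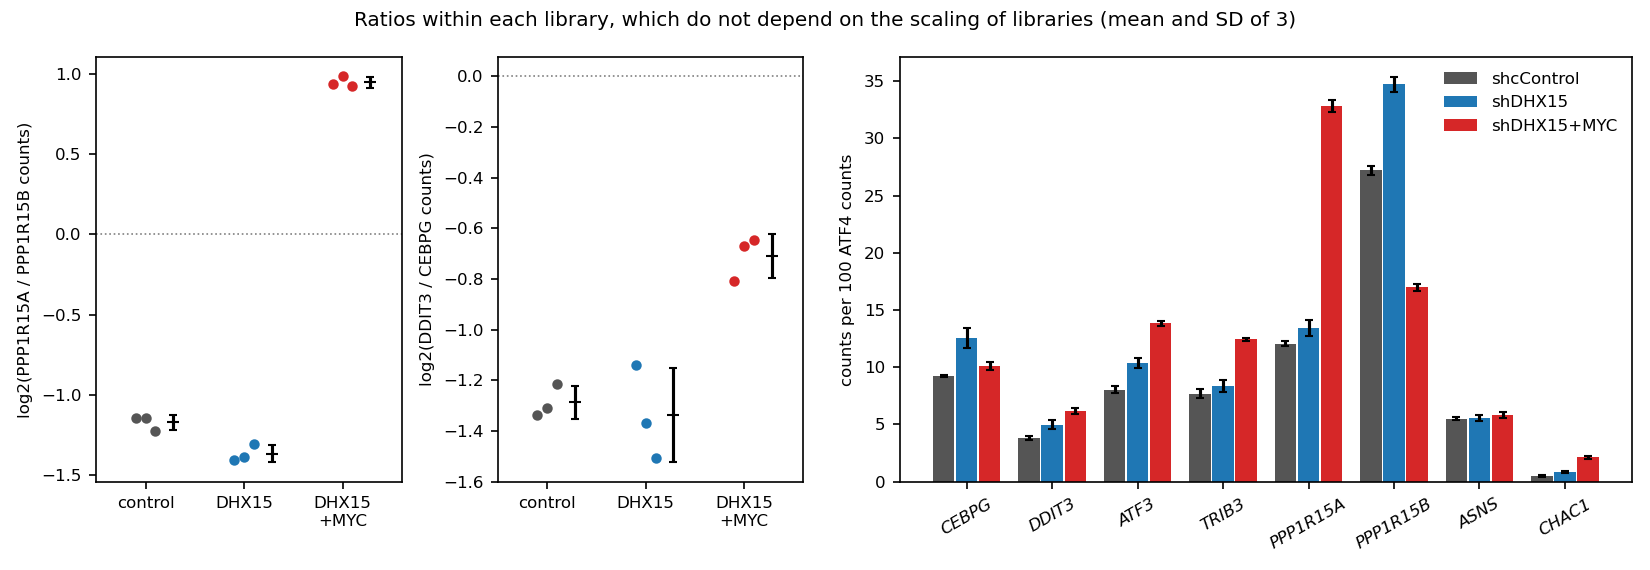
Ratios within each library: log2 ratio of PPP1R15A to PPP1R15B counts (left) and of DDIT3 to CEBPG counts (middle), with a point for each library and the mean and SD of 3 beside them, and counts of 8 genes per 100 ATF4 counts as group means with SD (right, bars from 0). The PPP1R15A to PPP1R15B ratio crosses 0 only with MYC, and the ASNS bars stay between 5.52 and 5.82.

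Per kilobase of exon, with all annotated exons of a gene joined, ATF4 was the highest in every group. It stood at 198, 174 and 339 CPM per kb in shcControl, shDHX15 and shDHX15+MYC. The order of the genes rests on these joined lengths, such as 3093 bases for PPP1R15A and 5227 for PPP1R15B. The annotation used for counting is not given, and lengths of single transcripts were not tried. PPP1R15B came next in the first 2 groups (26.0 and 29.1 CPM per kb), then PPP1R15A (19.5 and 19.0), DDIT3 (14.5 and 16.6), and TRIB3, CEBPG and ATF3 between 9.94 and 12.4. In shcControl the ranges of TRIB3 and CEBPG overlapped, and in shDHX15 those of PPP1R15A and DDIT3 and those of ATF3 and TRIB3. ASNS (6.18 and 5.49), CHAC1 (1.17 and 1.79) and NUPR1 (0.107 and 0.0238) were the lowest. With MYC the order became ATF4, PPP1R15A (90.5), DDIT3 (40.3), TRIB3 (30.8), ATF3 (29.2), PPP1R15B (27.7), CEBPG (19.5), ASNS (11.1), CHAC1 (8.79) and NUPR1 (0.0789). On these lengths PPP1R15B thus went from the second place to the sixth while its own level stayed within 133 to 153 CPM. The overlap of DDIT3 exons with MARS, given above, bears on the place of DDIT3.

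Changes of the genes with and without a CARE in the promoter window overlapped, and the part of such elements in them was not tested. Elements outside the window or with other letters would not be found by this search. With MYC, the 5 genes with one ran from PPP1R15B (-0.07) through CEBPG (0.65), ASNS (1.02) and ATF3 (1.37) to CHAC1 (2.29), and the 4 windows without one belonged to ATF4 (0.96), DDIT3 (1.28), TRIB3 (1.53) and PPP1R15A (2.25). Of the 337 tested genes with a CARE in their window, 47.8% were called higher with MYC over shDHX15, beside 42.5% of the 11421 tested genes with any window. With the hairpin over shcControl these shares were 16.6% and 22.4%. For the 1391 genes with a CACGTG E-box, 46.4% were called higher with MYC, and 21.9% with the hairpin. For the 406 genes with a CRE the shares were 46.3% and 27.3%. These shares are descriptions without a test.

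The profile of ATF4 over the 9 libraries was compared with that of 9451 genes averaging 3 or more on the log2 CPM scale, by the Euclidean distance of centred log2 CPM. The 5 nearest were MT-ND5 (distance 0.0855), NOP14 (0.0988), the seryl-tRNA synthetase SARS (0.0991), HSP90AB1 (0.101) and GPS2 (0.105), beside a median distance of 1.60 over all of these genes. Among the other stress response genes, ASNS was the nearest to ATF4 (0.17) and CHAC1 the farthest (2.66). Nearest to the median profile of the 10 genes were DMD (0.111), DDX1 (0.128), EDC3 (0.145), TACO1 (0.167) and PSMC4 (0.167), with a median of 2.06 over all.

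The rest of the pathway was read from 9 lists of 125 genes, of which 124 were tested. With the hairpin over shcControl, 35 were called higher, 35 lower and 54 not, and with MYC over shDHX15 85 were higher, 34 lower and 5 not. These counts and those of each list are to be read beside the 22.0% and 23.0% of all tested genes called higher and lower with the hairpin, the 42.1% and 42.6% with MYC, and medians of all genes of -0.0047 and 0.006. Upstream, 7 genes were the eIF2 kinases and their activators. With the hairpin 2 were higher, EIF2AK2 (PKR, 0.12) and EIF2AK3 (PERK, 0.15), and 3 were lower, EIF2AK1 (HRI, -0.21), GCN1 (-0.19) and EIF2AK4 (GCN2, -0.12). The call of EIF2AK4 was lost with total-count scaling and with DESeq2, and that of EIF2AK3 without shDHX15 replicate 1, where 1 gene was higher and 4 were lower. With MYC 3 were higher and 4 lower (median -0.15), but 3 higher and 1 lower (median 0.05) with total-count scaling. GCN1, the activator of GCN2, rose from 234 ± 4.29 to 388 ± 1.95 CPM (log2 0.73), and EIF2AK2 rose by 0.64, while KIAA0141, which encodes DELE1, the messenger from mitochondria to HRI, fell by 0.78 on the log2 scale. GCN2 itself had a difference of -0.22, and of -0.03 with total-count scaling. Of the 8 subunits of eIF2 and its exchange factor eIF2B, 2 were higher and 4 lower with the hairpin (median -0.13), but 3 higher and 2 lower with total-count scaling (median -0.06). With MYC 7 were higher and 1 lower (median 0.39). EIF2S1, the subunit that the kinases phosphorylate, rose from 77.3 ± 3.20 to 182 ± 7.59 CPM and EIF2B2 from 29.3 ± 0.528 to 77.4 ± 2.63, whereas EIF2S3 fell by 0.34.

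On the side of the brakes, 2 of 8 genes were higher, 2 lower and 4 not called with the hairpin, and 3, 3 and 2 with MYC (medians 0.03 and -0.02); with total-count scaling these were 2, 1 and 5 and then 5, 3 and 0 (medians 0.10 and 0.18). Without shDHX15 replicate 1 the hairpin counts were 1, 2 and 5. The phosphatase catalytic subunit PPP1CC fell by 0.58 with MYC, and IMPACT, an inhibitor of GCN2 activation, rose from 0.893 ± 0.149 to 9.94 ± 0.304 CPM. Of 32 other bZIP factors, with which ATF4, CHOP and ATF3 share their DNA-binding fold, 11 were higher and 8 lower with the hairpin (median 0.08). MAFG (0.43) and BATF (-0.57) had the smallest edgeR adjusted p in their directions. DBP (0.53) was among those that rose by more than MAFG. With MYC 20 of the 32 were higher and 10 lower (median 0.77). ATF5, the closest relative of ATF4, rose from 29.3 ± 2.34 to 126 ± 1.22 CPM, JUN from 35.4 ± 2.85 to 135 ± 3.35 and FOSL1 from 0.667 ± 0.266 to 21.3 ± 0.430, whereas CREBZF fell by 1.29.

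Among the genes of amino acid supply and tRNA charging, the synthetases were called in 1 direction with MYC. All 13 genes of the list of cytosolic tRNA synthetases and the tRNA exporter XPOT were higher with MYC over shDHX15 and over shcControl (medians 0.82 and 0.83), whereas with the hairpin 4 were higher, 4 lower and 5 not called (median -0.03). WARS rose from 27.2 ± 0.494 to 121 ± 0.439 CPM and IARS by 1.51 with MYC. With the hairpin AARS (0.25), GARS (0.29) and CARS (0.31) rose and YARS fell by 0.18. Of 15 genes of amino acid and one-carbon synthesis, 2 were higher and 6 lower with the hairpin (median -0.15), and 13 higher and 2 lower with MYC (median 0.60); with total-count scaling the last were 14 and 1. BCAT1, a branched-chain aminotransferase, fell by 0.62 with the hairpin and rose by 1.78 with MYC. MTHFD2, of mitochondrial folate metabolism, rose by 0.52 with the hairpin; with MYC its difference was -0.09, and 0.11 with total-count scaling. CBS, which makes cystathionine, fell from 18.2 ± 0.757 to 3.99 ± 0.587 CPM with MYC. Of 11 amino acid transporters 2 were higher, 1 lower and 8 not called with the hairpin (median 0.07). These were 4, 0 and 7 with total-count scaling (median 0.13) and 4, 2 and 5 without shDHX15 replicate 1. With MYC 7 were higher and 4 lower (median 0.62), and 7 and 2 with total-count scaling. SLC7A11, the cystine transporter, rose from 4.38 ± 0.271 to 25.2 ± 1.88 CPM with MYC, and SLC38A2, a glutamine transporter induced in amino acid starvation, fell by 0.98 on the log2 scale.

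Stress and death targets did not move one way. Of 15 tested, 7 were higher and 3 lower with the hairpin (median 0.22), and 10 higher and 5 lower with MYC (median 0.67). TNFRSF10B, the death receptor DR5 and a target of CHOP, rose from 20.4 ± 1.04 to 133 ± 1.73 CPM with MYC, SESN2 by 1.49, and HMOX1, haem oxygenase, from 0.997 ± 0.156 to 31.8 ± 0.605 CPM. The mTORC1 inhibitor DDIT4 rose from 304 ± 2.99 to 449 ± 1.23 CPM with the hairpin and fell to 126 ± 5.23 with MYC, and KLHL24 rose by 0.66 and then fell by 1.59. Of 15 genes of the ATF6 and XBP1 branches, the other arms of the unfolded protein response, 3 were higher, 4 lower and 8 not called with the hairpin (median 0.001), and 9 higher, 5 lower and 1 not called with MYC (median 0.32). With total-count scaling the hairpin counts of this list were 5, 1 and 9, and without shDHX15 replicate 1 they were 5, 4 and 6. HSPA5, the chaperone BiP, rose from 170 ± 2.13 to 498 ± 9.47 CPM with MYC, and EDEM1, of degradation from the endoplasmic reticulum, fell by 0.84.

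**Figure D4:**
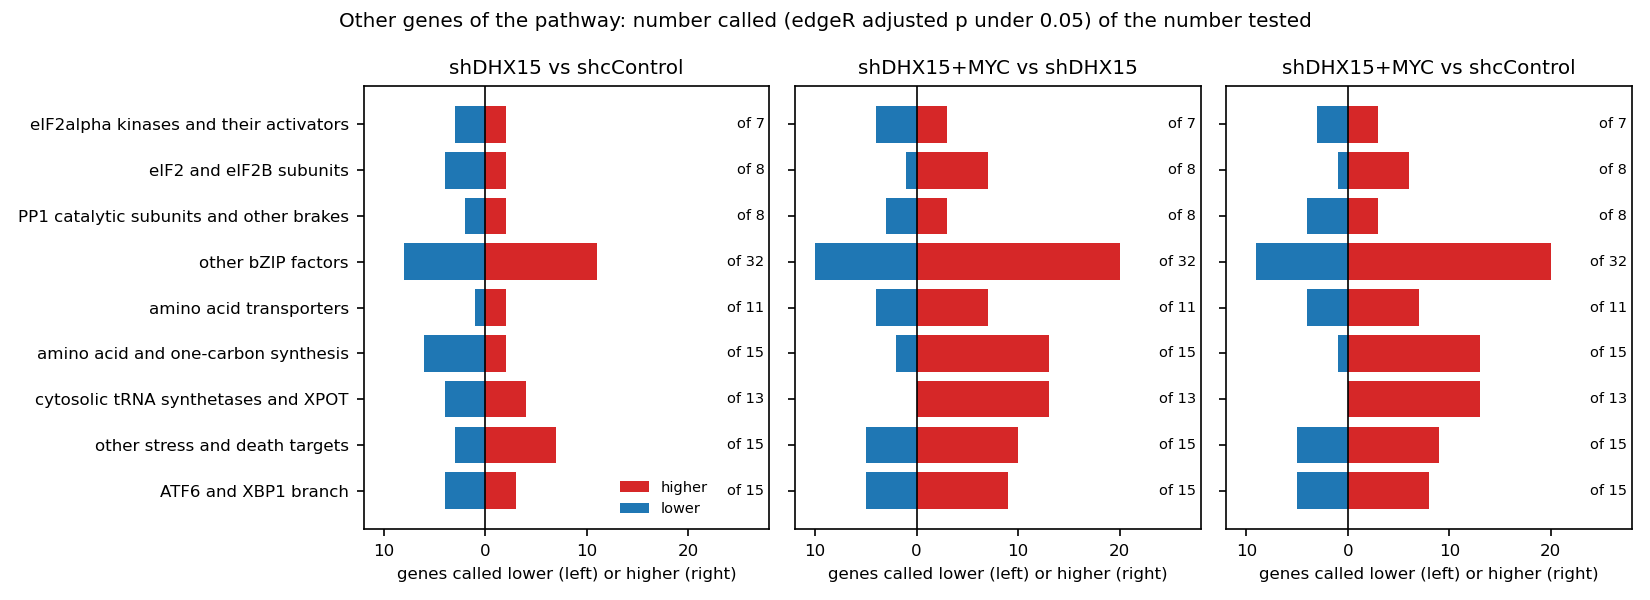
Number of genes of each of the 9 lists called higher (right of 0) or lower (left of 0) at an edgeR adjusted p under 0.05 in the 3 comparisons, with the number tested at the right edge. The tRNA synthetase list has 13 of 13 to the right in both panels with MYC and 4 to each side with the hairpin alone.

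Another scaling of the libraries moved all genes of a comparison together. With total-count scaling, the median log2 fold change of all genes was 0.06 with the hairpin over shcControl, 0.20 with MYC over shDHX15 and 0.28 with MYC over shcControl. The share of all calls that were higher was then 64.1%, 58.9% and 62.4%, in place of 48.8%, 49.7% and 49.7%. With TMM factors from the genes averaging 3 or more on the log2 CPM scale it was 52.1%, 59.0% and 60.0%. Under these and the other alternatives, 9 to 10 of the 10 stress response genes were called higher with MYC over shDHX15 and 4 to 5 with the hairpin over shcControl.

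**Figure D5:**
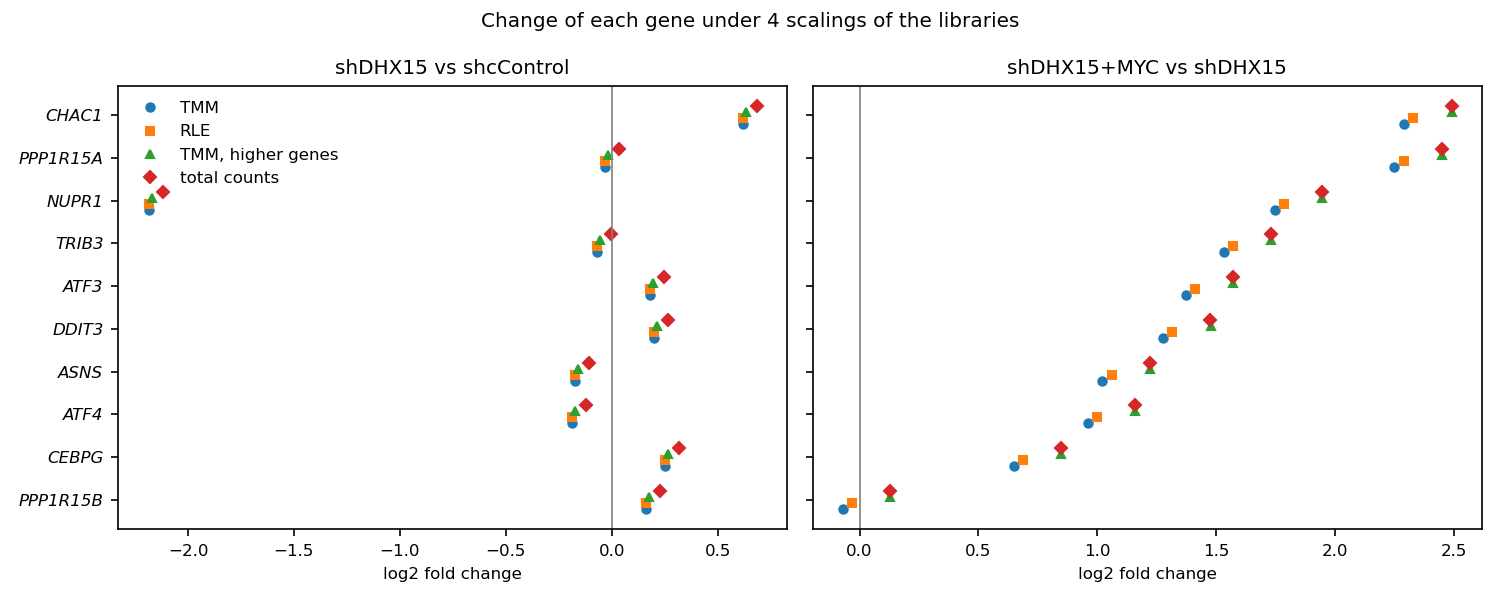
Log2 fold change of the 10 genes under 4 ways of scaling the libraries (TMM, RLE, TMM from genes averaging 3 or more in log2 CPM, and total counts), with the hairpin over shcControl (left) and with MYC over shDHX15 (right). PPP1R15B lies on either side of 0 in the right panel, from -0.07 to 0.13, and in the left panel PPP1R15A, which was not called, moves from -0.03 to 0.03.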

How the data were processed

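The authors deposited read counts per gene as whole numbers, in 1 table of 17637 genes and 9 libraries. Per the labels' protocols, poly(A) RNA was read from both ends for 150 bp. FastQC 0.11.9, HISAT2 2.2.1, DESeq2 1.32.0 and the build hg38 are named by the submitters' processing notes; which program counted the reads, and on which annotation, is not given in the sources used here. Columns were joined to samples by name: those naming a GFP hairpin were taken as shcControl, and those naming a numbered hairpin, with or without MYC, as shDHX15+MYC and shDHX15, because the labels give no other target. The levels of DHX15 and MYC bear on that join.

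Genes kept by filterByExpr (15309, all 10 genes studied among them) were scaled by TMM and fitted with the quasi-likelihood model of edgeR 4.0.16 in R 4.3.3, with 1 mean per group over all 9 libraries. Each of 3 comparisons was tested 2-sided with Benjamini-Hochberg adjustment over the genes tested, and a gene was called at an adjusted p under 0.05. Adjusted p-values in the text come from this model unless another is named. Ratios were compared by exact permutation tests (scipy 1.17.1). Coordinates, exon lengths (all exons of a gene joined) and shared sequence (100-base windows) come from GENCODE v29, to which 95.1% of symbols matched; promoter windows are from RefSeq. The fit was tested on simulated data with known changes of 1.25-fold to 4-fold, 50 genes for each size. For shDHX15 over shcControl it recovered 68% of the 1.25-fold changes and 88% of the 1.5-fold ones. Of its 188 calls there, 12 were of unchanged genes. For shDHX15+MYC over shDHX15 the shares recovered were 78% and 90%. Changes below 1.25-fold were not simulated.

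The genes, the 9 lists and the rules were chosen with earlier results of these data known. Named are DHX15, MYC, the 10 genes, up to 3 called genes per list, comparison and direction with the smallest adjusted p, of which examples are printed, and the 5 genes nearest in profile. MARS is also named for its overlap with DDIT3. Alternatives were other scalings, no filter on low counts, only the 2 groups compared, a replicate block, genes with little shared sequence, DESeq2 1.42.0 and leaving out each library; for the 9 lists a part of these was run, chosen after their counts were seen.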

Additional observations from a re-analysis of the deposited data

How the results depend on the processing

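The counts of the 10 genes called higher or lower and their fold changes were recomputed under 17 alternatives. The 2-fold counts, the counts of ranges without overlap and the motif shares were not. Of the fold changes of the 10 genes, 491 of 510 kept their direction and their side of the threshold, 16 lost the call and 2 called values reversed. The remaining 1, PPP1R15A with the hairpin, was not called and went from -0.03 to 0.03 with total-count scaling. No call was lost or reversed for ATF4, CEBPG, ATF3, NUPR1 or CHAC1, nor for TRIB3 and PPP1R15A with MYC. PPP1R15B, lower with MYC over shDHX15, reversed to 0.13 with total-count scaling and to 0.13 with TMM factors from the genes averaging 3 or more on the log2 CPM scale. The number of the 10 genes called lower with MYC was 0 in place of 1 under those scalings, and also with RLE size factors, with only the 2 groups in the fit, with DESeq2 and with a replicate block; over the fits that leave out 1 library it was 0 to 1. The log2 ratio of DDIT3 to CEBPG between shDHX15 and shcControl was -0.05, and from -0.15 to 0.0335 when a library was left out. The calls lost for DDIT3, ASNS and PPP1R15B stand beside their results, and their cause was not tested. Library numbers did not pair across groups: deviations of same-numbered libraries correlated at -0.0239 to 0.0412, and 5 of 9 libraries correlated best with their own number. With the replicate block the count of the 10 genes called higher stayed at 5, 9 and 9 in the 3 comparisons. Of 270 counts of called genes in the 9 lists under 5 of these alternatives, 244 stayed within 1.5 times of the value given and 26 did not. For the hairpin over shcControl and MYC over shDHX15, those under total-count scaling and without shDHX15 replicate 1 are given beside the lists. With 4 to 34 counts, depth limits NUPR1 most.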
